A study of Rattus norvegicus with 2 samples.

Results

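The genes described here encode 8 enzymes of the mevalonate and sterol synthesis pathway: Hmgcs1, Mvk, Idi1, Fdps, Fdft1, Sqle, Lss and Dhcr7. They were chosen by name, with earlier results of these data known. All probe sets whose only gene symbol in the platform annotation was one of these names were taken. The annotation named 12 such probe sets for 7 of the 8 genes, out of 15866 probe sets and 10411 single-symbol genes in the table. No probe set carried Hmgcs1 as its only symbol, so that gene is not analysed here. The data are liver RNA of SD-rats on 2 oligonucleotide arrays, 1 for a high-fat diet and 1 for a low-fat diet. Both diets were based on AIN93G, a purified rodent diet, and both samples were described as 4 weeks old with 9 weeks of feeding. How much fat each diet held, the animals' sex, and how many animals each RNA came from were not stated in the labels. Nor was it stated whether 4 weeks was the age at the start of feeding. The design had no replicates and therefore no test, so each difference below describes this pair of arrays.

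The pathway builds cholesterol from acetyl-CoA. Its early steps join acetyl units into mevalonate and then into the isoprenoid farnesyl diphosphate, which also feeds ubiquinone, dolichol and the lipid anchors of proteins. Its late steps join farnesyl units into squalene, close the rings and trim the product to cholesterol. In liver the genes of both stretches are known targets of the transcription factor SREBP-2, which is released when sterols in the endoplasmic reticulum are low. Hmgcs1, Mvk, Idi1 and Fdps were taken as early, and Fdft1, Sqle, Lss and Dhcr7 as late.

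The promoters of Fdps and Mvk, the genes with the lowest ratios on their brightest probe sets, and of Dhcr7, whose probe set had the highest, are shown for the elements that sterol-regulated promoters are known for. Each covers 250 bases before and 50 bases after the gene's start and comes from RefSeq (build GRCr8), where 6 of the 8 genes were matched (Hmgcs1, Mvk, Idi1, Fdps, Lss and Dhcr7). They lie at chr2:176804767-176805066 (minus strand) for Fdps, chr12:47819454-47819753 (minus strand) for Mvk and chr1:208444184-208444483 (plus strand) for Dhcr7. Sequences read 5′ to 3′ along the gene, and capitals mark matches on either strand to CCAAT, the site of NF-Y, and to GGGCGG, the GC box of Sp1, both known partners of SREBP.
Fdps: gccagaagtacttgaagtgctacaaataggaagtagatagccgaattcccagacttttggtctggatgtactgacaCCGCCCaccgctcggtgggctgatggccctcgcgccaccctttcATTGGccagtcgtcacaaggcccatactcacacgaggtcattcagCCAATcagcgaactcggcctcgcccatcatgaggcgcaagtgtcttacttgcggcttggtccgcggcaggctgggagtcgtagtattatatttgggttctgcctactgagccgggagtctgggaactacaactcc
Mvk: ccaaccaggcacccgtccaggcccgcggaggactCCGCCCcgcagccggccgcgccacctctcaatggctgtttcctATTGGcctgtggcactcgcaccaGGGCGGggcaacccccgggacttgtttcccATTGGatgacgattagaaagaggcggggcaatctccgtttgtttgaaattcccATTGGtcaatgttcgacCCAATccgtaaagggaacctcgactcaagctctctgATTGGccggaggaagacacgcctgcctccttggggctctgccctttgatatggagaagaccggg
Dhcr7: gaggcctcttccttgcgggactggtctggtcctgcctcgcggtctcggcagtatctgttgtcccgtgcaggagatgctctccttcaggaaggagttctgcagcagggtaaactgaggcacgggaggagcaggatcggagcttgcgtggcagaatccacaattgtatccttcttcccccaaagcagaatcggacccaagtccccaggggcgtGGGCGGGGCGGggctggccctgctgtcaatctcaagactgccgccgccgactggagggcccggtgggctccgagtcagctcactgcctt
In Fdps, CCAAT lay at bases -130 to -126 (on the other strand) and at -85 to -81, counted from the start. The Mvk window held 5 CCAAT matches, the Fdps window 2 and the Dhcr7 window none. Of the matched windows not shown, Hmgcs1 and Idi1 held 2 each and Lss 1. CCAAT was found in 5 of the 6 matched members and in 37.5% of 33469 promoters of the same length. Dhcr7 held 2 GC boxes that overlap by 1 base, and GC boxes were found in 5 of the 6 members and in 33.1% of all promoters. The share of G and C in the member windows ran from 53.7% (Idi1) to 68.7% (Lss), against a median of 51.7% over all promoters. Of the forms of the sterol regulatory element only TCACNCCAC was searched for, so other forms would be missed. It was in none of the 6 windows and in 1.12% of all promoters. These are matches of letters in this window and no measure of binding.

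The values are signal intensities on a linear scale. The median of each array, 14 on the high-fat and 15.7 on the low-fat array, served as its floor, because the table gives no detection calls. A probe set was called measured where its mean log2 signal reached the mean of both floors, which 7864 of the 15866 did. Log2 ratios, high-fat over low-fat, had a median of -0.12 over the measured probe sets. That median was subtracted, and every ratio below is centred in this way unless stated. A robust SD of ratios, taken over the 200 probe sets nearest in signal, is given as a yardstick of how widely ratios spread at that brightness. It is a spread across probe sets and no replicate error. Of the 12 member probe sets 7 were above both floors and measured, in Mvk, Fdps, Fdft1, Lss and Dhcr7. Another 4 were below both floors, and 1 of Idi1 was above the floor on the high-fat array only.

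**Figure D1:**
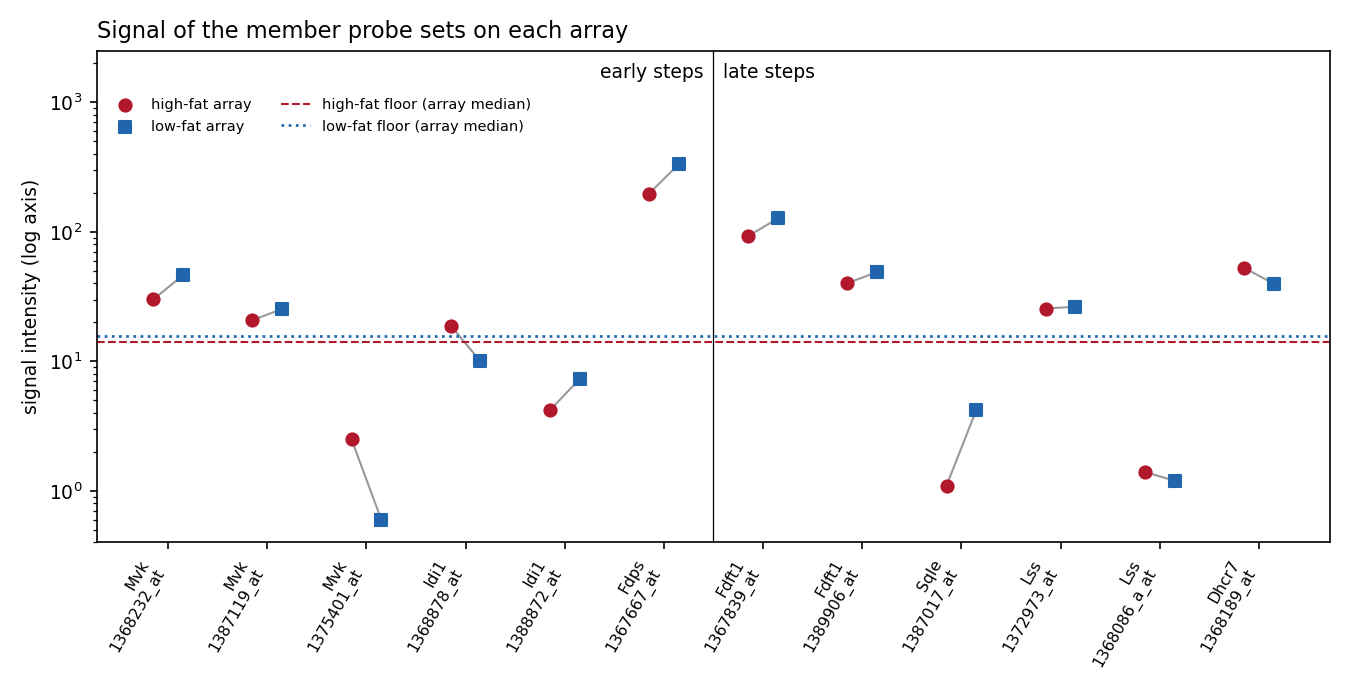
Signal intensity (log axis) of each of the 12 member probe sets on the high-fat array (red circles) and the low-fat array (blue squares), in pathway order, with the median of each array as a line. The Fdps signals are far above both floors, and the Sqle probe set and 1 probe set each of Mvk, Idi1 and Lss are below both.

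The early genes that could be measured were lower on the high-fat array. Fdps, which makes farnesyl diphosphate at the branch point of the pathway, had a signal of 197.3 on the high-fat array and 333.3 on the low-fat array. Its log2 ratio was -0.64, 1.56-fold lower, where the robust SD at that signal was 0.23. This was the lowest ratio among the 7 measured member probe sets, and both signals were well above the floors, at 14.1 times the high-fat and 21.2 times the low-fat floor. Mvk, the kinase that puts the first phosphate on mevalonate, had signals of 30.1 on the high-fat array and 46.2 on the low-fat array on probe set 1368232_at. That log2 ratio was -0.50, 1.42-fold lower, with a robust SD of 0.30. On probe set 1387119_at Mvk had 20.8 on the high-fat array and 25.4 on the low-fat array, a log2 ratio of -0.17 against a robust SD of 0.40. These 2 Mvk probe sets are annotated to the same sequence record, so they are not independent readings, and only the brighter differed by more than the robust SD at its signal. The third Mvk probe set, 1375401_at, read 2.5 on the high-fat array and 0.6 on the low-fat array, below both floors, and gives no fold.

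Idi1, which isomerises the 5-carbon isoprenoid unit, was near or below the floors on both of its probe sets. Probe set 1368878_at read 18.9 on the high-fat array, above the floor, and 10 on the low-fat array, below it. Against the low-fat floor the high-fat signal was at least 1.31-fold higher, the direction opposite to Fdps and Mvk. Its other probe set, 1388872_at, read 4.2 on the high-fat array and 7.3 on the low-fat array, below both floors. That probe set gives no fold, so Idi1 rests on the reading near the floor, which was higher on the high-fat array.

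Late genes were divided. Fdft1, the squalene synthase that commits farnesyl units to sterols, had 92.8 on the high-fat array and 126.9 on the low-fat array on probe set 1367839_at, a log2 ratio of -0.33 with a robust SD of 0.24. Its second probe set, 1389906_at, read 40.2 on the high-fat array and 48.9 on the low-fat array, a ratio of -0.17 with a robust SD of 0.32. Both probe sets of Fdft1 were thus lower on the high-fat array, the dimmer by less than the robust SD. Lss, the cyclase that forms lanosterol, had 25.6 on the high-fat array and 26.4 on the low-fat array on probe set 1372973_at. Its ratio of 0.07 was far inside the robust SD of 0.35, and it was -0.04 without centring. Dhcr7, the reductase of the last step to cholesterol, had 52.8 on the high-fat array and 39.8 on the low-fat array. Its log2 ratio was 0.52, the highest of the 7 measured member probe sets, 1.44-fold higher, with a robust SD of 0.30. Sqle, the epoxidase that is a rate-controlling step of the late pathway, read 1.1 on the high-fat array and 4.2 on the low-fat array, below both floors, and gives no fold. The second Lss probe set, 1368086_a_at, read 1.4 on the high-fat array and 1.2 on the low-fat array and was likewise below both.

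**Figure D2:**
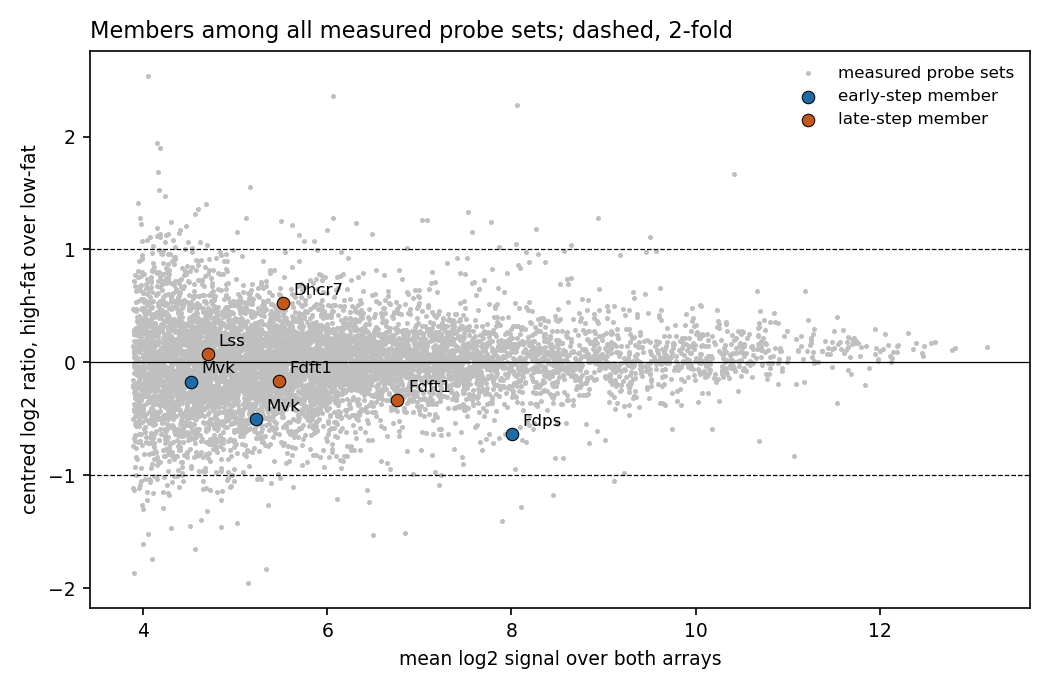
Centred log2 ratio, high-fat over low-fat, against mean log2 signal for all measured probe sets (grey) and the 7 measured member probe sets (blue, early; orange, late). Ratios spread more widely at low signal, and all 7 members lie within 2-fold (dashed lines), with Fdps at the lower edge of the cloud at its signal.

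No measured member probe set was 2-fold apart between the arrays, a size that 0.776% of all measured probe sets reached as higher and 0.903% as lower. Past 0.5 on the log2 scale, 2 of the 7 were lower (Fdps and the brighter Mvk probe set), against 7.68% of all measured probe sets. On the higher side 1 of the 7 passed 0.5 (Dhcr7), against 6.14% of all. Because the members and the lists below were chosen with earlier results of these data known, such shares give scale only. Of the 7, 5 were lower and 2 higher, where centring puts as many of all measured probe sets above 0 as below it. The median ratio of the 7 was -0.17, against 0 over all measured probe sets. Mvk and Fdft1 have a pair of measured probe sets each, with the same sign and differences of -0.33 and -0.17 (brighter minus dimmer). Over all 696 genes that have such a pair, this difference had an SD of 0.42, and 56.9% of pairs had the same sign.

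Taking the brightest measured probe set per gene, the early genes had a median log2 ratio of -0.57 over Fdps and Mvk, and the late genes 0.07 over Fdft1, Lss and Dhcr7. Early minus late was -0.64. The early ratios ran from -0.64 to -0.50 in 2 genes and the late ratios from -0.33 to 0.52 in 3 genes. These ranges did not overlap, but those over all measured probe sets did, since the dimmer Mvk probe set at -0.17 lay above the brighter Fdft1 probe set at -0.33. They also overlapped with a pseudocount of 50, where Mvk was at -0.20 and Fdft1 at -0.25. Genes are not replicates, and no test stands behind the contrast. With the floors set at the 75th percentile of each array, which left Fdps and Fdft1 alone as measured, early minus late was -0.30. Idi1, whose reading above a floor was higher on the high-fat array, is not in these medians.

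**Figure D3:**
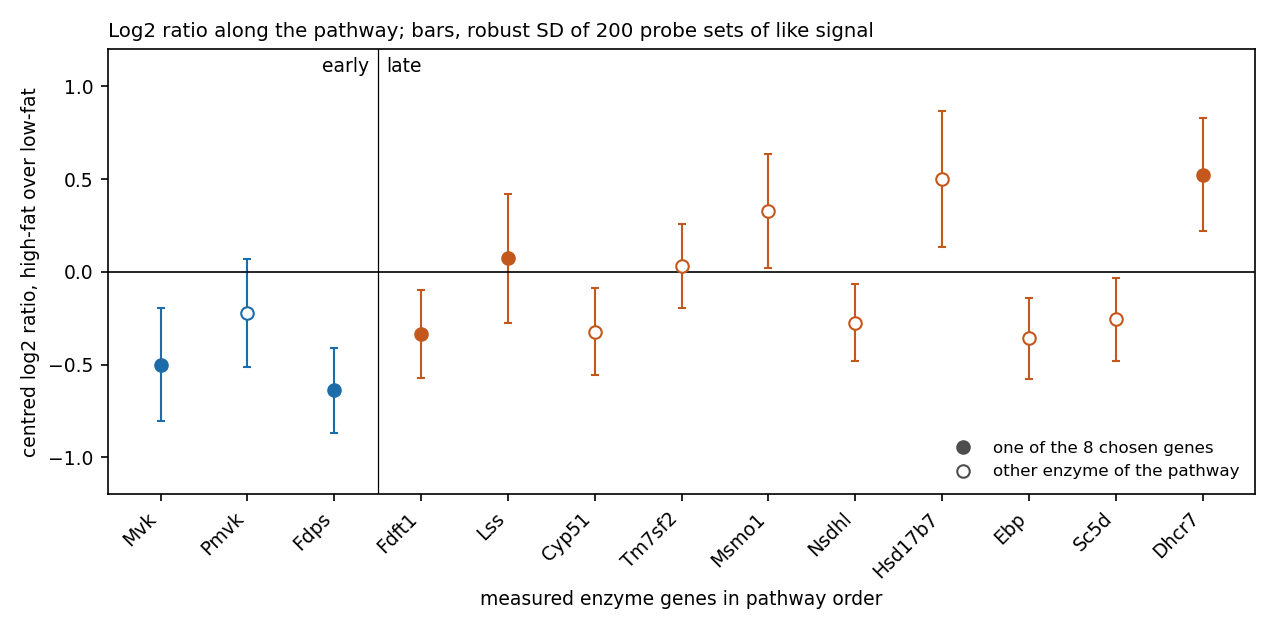
Centred log2 ratio (high-fat over low-fat) for each measured enzyme gene in pathway order (blue, early; orange, late; filled, one of the 8 chosen genes; open, another enzyme). Bars are the robust SD of the 200 probe sets nearest in signal, not a replicate error; the 3 early genes are below 0 and the 10 late genes lie on both sides.

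The other enzymes of the pathway went both ways, with more lower than higher. Of 15 listed, 8 were measured, 3 higher and 5 lower, none past 0.5, with a median of -0.24 and a range of -0.36 to 0.50. Among all measured genes, 7.42% passed 0.5 as lower and 5.87% as higher. Pmvk, which follows Mvk and adds the next phosphate, read 48.6 on the high-fat array and 61.4 on the low-fat array, a ratio of -0.22. Among late enzymes, Ebp, the sterol isomerase, read 185.2 on the high-fat array and 257.5 on the low-fat array (-0.36, robust SD 0.22). Cyp51, the lanosterol demethylase, read 114.5 on the high-fat array and 155.3 on the low-fat array (-0.32, with a robust SD of 0.235). The second probe set of Cyp51 had a ratio of -0.18, inside its robust SD of 0.27. Hsd17b7, a ketosteroid reductase of the demethylation complex, went the other way at 25.8 on the high-fat array and 19.8 on the low-fat array (0.50, with a robust SD of 0.37). Msmo1, the methyl sterol oxidase, read 40.6 on the high-fat array and 35.1 on the low-fat array (0.33, with a robust SD of 0.31). Nsdhl, which works with Msmo1 and Hsd17b7 in removing the same methyl groups, was at -0.27 with a robust SD of 0.21. Sc5d, the desaturase that makes the substrate of Dhcr7, was at -0.26 and -0.28 on its pair of probe sets. The robust SD was 0.22 at the signal of each. Tm7sf2, a sterol reductase, was at 0.03.

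With these enzymes included, 3 of 3 measured early genes were lower, and of 10 measured late genes 5 were higher and 5 lower. Of the 5 higher, Lss (0.07) and Tm7sf2 (0.03) were inside their robust SDs and below 0 without centring (-0.04 and -0.08). On the probe sets used, the 5 lower late genes were each past their robust SD, while Pmvk (-0.22) was inside its own of 0.29. These 5 late genes were also brighter than Dhcr7, Hsd17b7 and Msmo1, and any part of brightness in the ratios was not tested. The median was -0.50 for the early and -0.11 for the late genes, and early minus late was -0.39. The early and late ranges then overlapped, since Pmvk lay above several late genes. This extension was chosen after the values were seen. The late ratios did not follow the order of steps, since Dhcr7 and Hsd17b7 were at 0.52 and 0.50 while Ebp and Sc5d, which act between them, were at -0.36 and -0.26. Mvd, the decarboxylase before Idi1, read 12.4 on the high-fat array and 10.1 on the low-fat array, and Acat2, the thiolase of the first step, 7.9 on the high-fat array and 6.4 on the low-fat array, all below the floors. Lbr, a second sterol reductase, was below the floor on the high-fat array (10.6, against 20.5 on the low-fat array) and at least 1.35-fold lower there.

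The genes that sense sterols contained the one gene past 2-fold in the 4 lists of other genes, a size that 0.848% of all measured genes reached as higher and 0.865% as lower. Insig2, which holds the SREBP escort protein SCAP in the endoplasmic reticulum, read 446.3 on the high-fat array and 213.9 on the low-fat array, a log2 ratio of 1.18 (2.26-fold higher) with a robust SD of 0.21, and 0.97 with a pseudocount of 50. Insig1, its paralog and a target of SREBP-2, read 153.3 on the high-fat array and 106.4 on the low-fat array, a ratio of 0.64. Mbtps2, the protease of the second cleavage of SREBP, read 20.1 on the high-fat array and was below the floor on the low-fat array at 12.5, at least 1.39-fold higher. Srebf2, which encodes SREBP-2, read 39.6 on the high-fat array and 50.3 on the low-fat array, a ratio of -0.23 with a robust SD of 0.32. Nr1h3, the oxysterol receptor LXR-alpha, was at -0.32. Scap was at 0.07, and at -0.05 without centring. Of 11 listed genes, 10 were measured, 5 higher and 5 lower, with a median of 0.01 (-0.11 without centring). With Mbtps2 at its bound the median was the same, and 2 genes, Insig1 and Insig2, were past 0.5 on the higher side. With the ratios as they stand 3 of the 10 were, against 5.87% of all measured genes.

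Genes of cholesterol uptake, esterification and efflux were represented by 5 measured genes of 13 listed. All 5 were higher after centring, with a median of 0.15 and no gene past 0.5. Without centring 3 were higher, as with centring on the hybridization controls or a pseudocount of 50. Only Scarb1 was past the robust SD at its signal. Scarb1, the HDL receptor, had the highest ratio, 0.45 with a robust SD of 0.22, at 118.9 on the high-fat array and 94.4 on the low-fat array. Its second probe set was at 0.27 with a robust SD of 0.19. Abcg5, a subunit of the sterol exporter into bile, was at 0.28, Lcat, which esterifies cholesterol in plasma, at 0.15, and Lipa, the lysosomal lipase, at 0.04.

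Genes that use the isoprenoids made by the early steps were measured in 8 of 12, 4 higher and 4 lower, with a median of -0.11. Without centring 1 was higher and 7 were lower. The 2 genes past 0.5, both lower, were Rabggta and Dhdds, where 7.42% of all measured genes passed 0.5 as lower. With a pseudocount of 50 neither of the 2 genes passed it (-0.19 and -0.28). Dhdds, which elongates farnesyl diphosphate toward dolichol, read 28.9 on the high-fat array and 49.9 on the low-fat array, a ratio of -0.67 with a robust SD of 0.31. Rabggta, a subunit of the enzyme that attaches geranylgeranyl groups to Rab proteins, read 16.3 on the high-fat array and 28.8 on the low-fat array (-0.70, with a robust SD of 0.41), near the high-fat floor. The other subunit, Rabggtb, was at -0.27, and Coq7, of ubiquinone synthesis, at -0.33. The 4 higher genes were Coq3 (0.21), Dolk (0.09), Fnta (0.09) and Pdss2 (0.05).

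**Figure D4:**
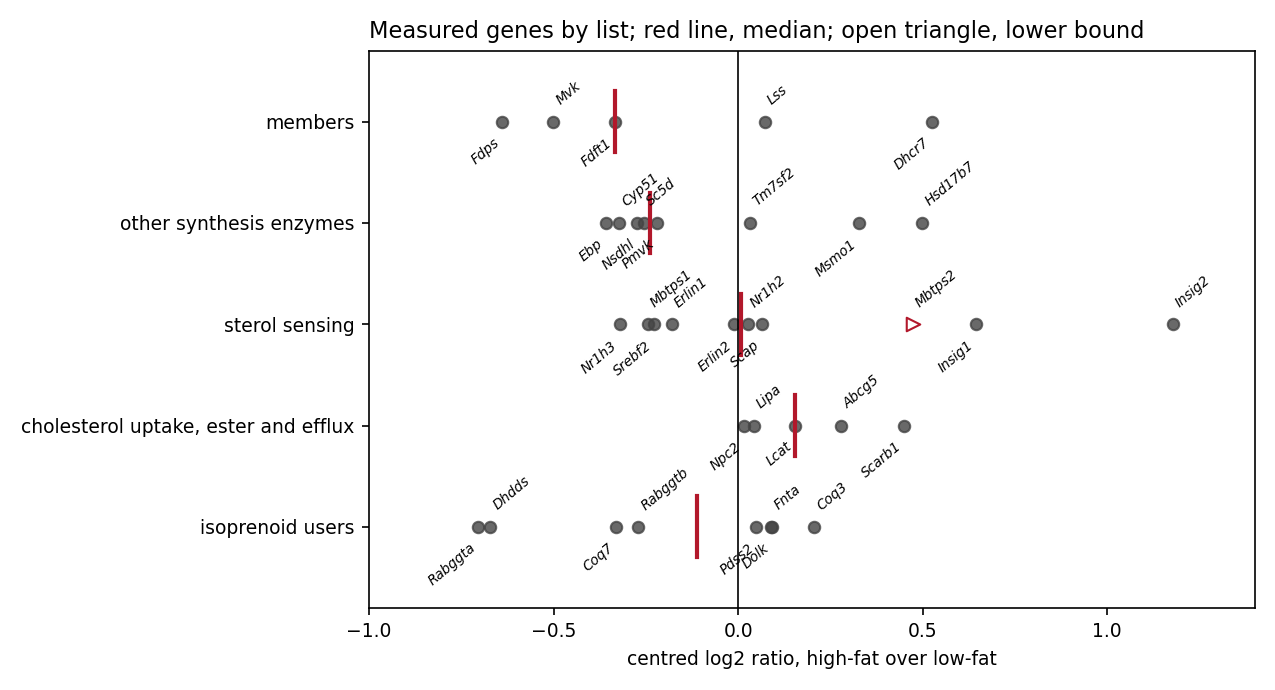
Centred log2 ratio, high-fat over low-fat, of the measured genes (points, named) in each list, 1 row per list, with the list median as a red line. The 5 measured members run from -0.64 (Fdps) to 0.52 (Dhcr7), and Insig2 is the point past 1. Mbtps2, with its low-fat signal below the floor, is drawn at its bound (open triangle).

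The arrays were close in overall signal, and the 3′ to 5′ signal ratio of the Gapdh control was 1.67 on the high-fat and 1.58 on the low-fat array, and that of the beta-actin control 2.85 on the high-fat and 2.69 on the low-fat array. All 7 hepatocyte markers with a probe set (of 8 listed) were above both floors, none at 0, with summed signals of 28609.0 on the high-fat array and 28225.2 on the low-fat array. Their ratios ran from 0.03 to 0.27. The marker sums are of uncentred signals and include markers below the floors. Stellate cell markers, of which 2 of 5 were measured, summed to 92.7 on the high-fat array and 142 on the low-fat array. Of the measured ones, Vim was at -0.59, and Col1a2, below the floor on the high-fat array, was at least 1.97-fold lower on 1 probe set and at 0.07 on the other. Endothelial markers, 2 of 4 measured, summed to 249.3 on the high-fat array and 294.8 on the low-fat array, and Kupffer cell markers, 3 of 6 measured, to 512.6 on the high-fat array and 603.5 on the low-fat array. The Kupffer sums differ through Clec4f (-0.21), while Cd68 (0.18) and Csf1r (0.10) were on the other side. The part of these differences in the sterol gene ratios was not tested, and in whole liver fewer cells of a type and less RNA per cell cannot be told apart. Cholangiocyte markers summed to 43.7 on the high-fat array and 50.2 on the low-fat array. Red cell markers summed to 1391.9 on the high-fat array and 1426.3 on the low-fat array. The adipocyte marker Cfd read 54.5 on the high-fat array and 58.4 on the low-fat array. After centring, the ratios of the red cell markers Hbb (0.08) and Alas2 (0.19) and of Cfd (0.02) were above 0. Markers of adrenal cortex, another tissue rich in sterol synthesis, were all below the floors.

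**Figure D5:**
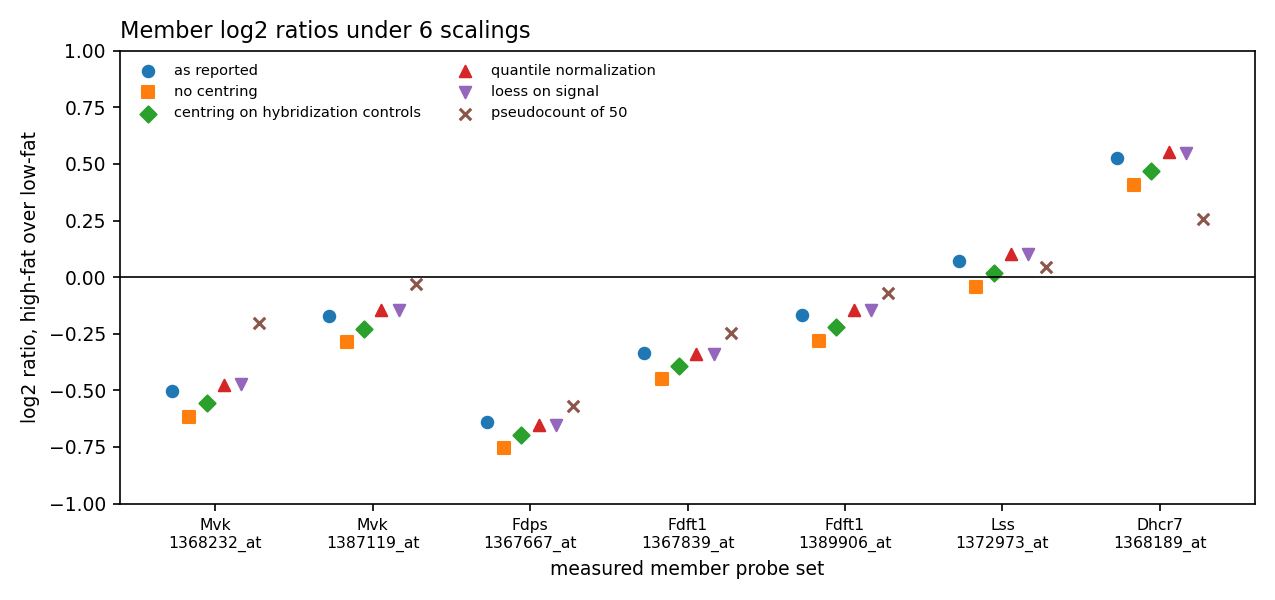
Log2 ratio, high-fat over low-fat, of the 7 measured member probe sets as reported and under 5 other scalings (symbols). The sign of 6 probe sets is the same under all of them; Lss is at -0.04 without centring.

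Under 5 other scalings of the 7 probe sets, 34 of 35 ratios kept their sign, and the exception was Lss without centring. Fdps ran from -0.76 (no centring) to -0.57 (pseudocount of 50), and Dhcr7 from 0.26 (pseudocount of 50) to 0.55 (quantile normalization). The brighter Mvk probe set ran from -0.62 (no centring) to -0.20 (pseudocount of 50). The pseudocount, which understates the ratios of dim probe sets, thus moved the values of Dhcr7 and this Mvk probe set by over 1.5 times. It also moved the dimmer probe sets of Mvk and Fdft1, to -0.03 and -0.07, and without centring these were at -0.29 and -0.28.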

How the data were processed

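Liver total RNA, 1 sample for each diet, was measured on arrays with Affymetrix probe set names. The table deposited by the authors gives each probe set's signal intensity on either array, linear as read from the values, with the steps from image to intensity not given in the sources used here. Of 15923 probe sets, 57 controls were left out, 12783 had 1 gene symbol, 312 several and 2771 none here. No symbol changed on lookup in the GRCr8 gene table, and 4 probe sets with a 0 were removed. Log2 signals had no pseudocount. Floors were the array medians, and the median ratio of measured probe sets was subtracted. Of several probe sets of a gene, the brightest was used. Where 1 array was under its floor, a fold named in the text is a bound against that floor. Counts over all measured features use the ratios as they stand. No test was run, and 1 array per diet limits the precision. The members and lists were chosen with earlier results of these data known. All member probe sets are named, with up to 4 measured genes per list with the largest ratio and fixed genes (Cyp51, Srebf2, Insig1). Pmvk, Nsdhl, Sc5d, Tm7sf2, Scap, Coq3, Dolk, Fnta, Pdss2 and genes below a floor were added after their values were seen. Alternatives were 5 scalings (loess span 0.3), floors at the 25th and 75th percentiles or none, probe set choice, and the border of early steps. Steps were tested on simulated data. Python 3.11.15, numpy 2.4.6, pandas 2.3.3, statsmodels 0.14.6 and matplotlib 3.10.9 were used.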

Additional observations from a re-analysis of the deposited data

Results flagged for a closer look

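A signal above the floor appeared on the high-fat array in an Idi1 probe set that was not counted as measured. Probe set 1368878_at read 18.9 on the high-fat array, above its floor of 14, and 10 on the low-fat array, below its floor of 15.7. The robust SD of ratios at that signal was 0.52, and the other Idi1 probe set was below both floors.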

How the results depend on the processing

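The floor decided how many member probe sets entered the counts. At the 75th percentile 2 were left (Fdps and Fdft1), 0 higher and 2 lower, with 0 past 0.5 higher and 1 lower, a late median of -0.35 and an early minus late difference of -0.30. At the 25th percentile 2 were past 0.5 higher and 1 was past 2-fold, the Idi1 probe set 1368878_at. With no floor 5 were higher, 3 past 0.5 higher and 3 past 2-fold, and the added values rest on signals under the floors. Without centring 1 was higher and 0 past 0.5 higher, and 0 passed 0.5 higher with centring on the hybridization controls or a pseudocount of 50. Past 0.5 lower, 1 was left with quantile normalization, loess or the pseudocount. With 1 probe set per gene 3 were lower. The early median stayed between -0.69 and -0.39 and early minus late between -0.80 and -0.30 over all alternatives run. The late median ran from -0.35 to 0.30, and was below 0 without centring, with no floor, at the 75th percentile and with the other enzymes added. Of 86 alternative values of these counts and medians, 67 moved by less than the robust SD of all measured ratios, 0.29, or stayed within 1.5 times for counts. Of the values of single genes and lists, 369 stayed within these limits and 25 did not, mostly counts in the lists. No paired analysis was possible because each diet had 1 array. Low signal limits these data: the signals of Sqle, Idi1, and 1 probe set each of Mvk and Lss were too near or below the floors for a fold.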
